A study of Homo sapiens with 32 samples.

Results

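The promoters described here carried peak summits of the transcription factors SP1, NRF1 and YY1 and none of ZNF143. They were chosen by the deposited summit lists: a promoter was 500 bp on each side of the 5′ end of a protein-coding gene on chromosomes 1 to 22 or X, overlapping windows were joined, and a window was kept if it held at least 1 SP1, 1 NRF1 and 1 YY1 summit and no ZNF143 summit. The rule gave 3159 of 18170 windows (17.4%), with the 5′ ends of 3471 of 19970 genes. A summit is the position of highest signal within a peak of chromatin immunoprecipitation followed by sequencing (ChIP-seq), in which DNA fragments bound by a protein are recovered with an antibody and sequenced.

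The cells were HEK293T, an established human embryonic kidney line, in 1 clone whose ZNF143 is fused to an inducible degron tag, a domain that sends the protein to degradation when a small molecule is added. All groups, the untreated ones included, came from this tagged clone. Of the 32 samples, some were left untreated and the others were exposed to dTAGV-1 (50 nM, 30 minutes). Each state had 4 SP1, 4 NRF1 and 4 YY1 samples, 2 of ZNF143, pulled down by its HA tag, and 2 mock precipitations. Labels of both states name the same SP1 list and the same ZNF143 list, while for NRF1 and YY1 they name no list. There was 1 list per antibody and no value per sample, so treated and untreated cells were not compared, there is no replicate error, and read depth is unknown. On the chromosomes used, the lists held 126181 SP1, 39180 NRF1, 106578 YY1 and 16165 ZNF143 summits. The score of a summit, in the authors' lists, is the −log10 of a p- or q-value. It grows with sequencing depth, so scores were compared only within a list. The 95% intervals below cover counting error among promoters, which are not replicates, and no p-value is given.

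SP1 is a zinc finger activator that binds GC boxes in CpG-rich promoters. NRF1, nuclear respiratory factor 1, binds a GC-rich palindrome and is known for genes of mitochondrial function and of basic cell metabolism. YY1 is a zinc finger protein that often sits just downstream of the transcription start of housekeeping genes. ZNF143 binds a long site known from small nuclear RNA genes and from many housekeeping promoters, where THAP11 and HCFC1 are known as its partners.

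Sequences at strong summits that held the factor's own motif are shown first. The motif was a condition of the choice, so its presence in them is no result. Each stretch is 61 bp of the hg38 plus strand around the highest summit of the named factor, from the members with the highest scores whose stretch held the factor's motif and lay in no annotated exon. Capitals mark exact matches, on either strand, to GGGGCGGGG for SP1, to GCATGCGC for NRF1 and to AANATGGCG for YY1. The SP1 stretches lie beside RAB22A (chr20:58309502-58309562, SP1 score 4305) and HOOK1 (chr1:59814697-59814757, 3042). The NRF1 stretches lie beside EID2B (chr19:39532859-39532919, NRF1 score 20630.4) and ADI1 (chr2:3519020-3519080, 18174). The YY1 stretches lie beside B9D2 (chr19:41364308-41364368, YY1 score 4046) and LYRM7 (chr5:131170692-131170752, 3044).
RAB22A: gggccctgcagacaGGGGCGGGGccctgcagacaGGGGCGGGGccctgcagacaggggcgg
HOOK1: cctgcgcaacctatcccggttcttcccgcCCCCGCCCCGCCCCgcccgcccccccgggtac
EID2B: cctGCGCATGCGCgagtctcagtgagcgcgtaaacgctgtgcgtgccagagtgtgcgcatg
ADI1: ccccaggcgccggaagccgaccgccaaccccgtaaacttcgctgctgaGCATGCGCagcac
B9D2: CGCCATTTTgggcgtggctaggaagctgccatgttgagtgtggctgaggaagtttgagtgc
LYRM7: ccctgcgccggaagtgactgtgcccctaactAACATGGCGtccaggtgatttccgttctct

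Most members did not look like these. In GTF2F2, which encodes a subunit of the general transcription factor TFIIF, and in PIK3C3, the lipid kinase that starts autophagosome formation, the 3 highest summits lay close together, and the stretch from 20 bp before the first to 20 bp after the last held no exact copy of any of the 3 motifs. They are the best-ranked members with such a stretch under 200 bp outside exons. Only exact letters were searched, and near copies that differ by a single letter are present. GTF2F2 holds gcaggcgc, close to the NRF1 letters, and PIK3C3 holds aagatggtg, close to the YY1 letters. The lack of an exact copy therefore does not show the lack of a binding site. The GTF2F2 stretch is chr13:45120405-45120483 (scores of 256 for SP1, 4782 for NRF1 and 195 for YY1, rounded), with the SP1, YY1 and NRF1 summits at 45120425, 45120430 and 45120463. The PIK3C3 stretch is chr18:41955053-41955118 (238, 654 and 1697), with summits at 41955074, 41955073 and 41955098. By contrast CARMIL3, shown because it was the only such stretch that held exact motifs of at least 2 of the factors, lies at chr14:24051792-24051949 (14.6, 1939 and 31.2). It was picked after its values were seen. Its YY1 summit lay at 24051812, its NRF1 summit at 24051927 and its SP1 summit at 24051929. The capitalised SP1 letters were thus near the YY1 summit, at the other end of the stretch from the SP1 summit. Only the NRF1 letters lay close to their own factor's summit.
GTF2F2: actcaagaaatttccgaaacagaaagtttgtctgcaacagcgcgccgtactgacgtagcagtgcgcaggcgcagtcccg
PIK3C3: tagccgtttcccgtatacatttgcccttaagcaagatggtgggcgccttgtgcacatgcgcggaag
CARMIL3: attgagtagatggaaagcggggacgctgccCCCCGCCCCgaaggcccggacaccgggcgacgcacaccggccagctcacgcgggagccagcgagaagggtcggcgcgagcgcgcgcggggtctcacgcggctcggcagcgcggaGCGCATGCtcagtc

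Windows with SP1, NRF1 and YY1 numbered 7915, and 39.9% of them (interval 38.8 to 41.0) had no ZNF143 summit. The other 4756 held all 4 factors, the largest group with any factor, and 1375 further windows held SP1 and YY1 but neither NRF1 nor ZNF143. Both groups are used below for comparison. The size of the group depended on list length: with the 16165 best summits of each list, 724 windows met the rule, 19.3% of the windows with the 3 factors, and with the better-scoring 50% of each list the share was 60.6%.

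Some members had a ZNF143 summit just outside the window. Within 100 bp beyond the window edge, 82 members (2.60%, interval 2.10 to 3.21) had a ZNF143 summit, within 500 bp 235 (7.44%, 6.57 to 8.41) and within 1000 bp 310 (9.81%, 8.82 to 10.9). For the rest it was far away: the median distance over all members was 51970.0 bp, with quartiles of 15382 and 129312 bp. The closest were CAP1, an actin-binding protein gene, with a ZNF143 summit of score 769 at 1 bp beyond the edge, IMMT, which encodes the MICOS subunit mitofilin, with a score of 1301 at 2 bp, and SOX4, a developmental transcription factor gene, with a score of 2.77 at 4 bp. On the other side of the rule, the single ZNF143 summit of RAP1GDS1 (score 5.65) lay 500 bp upstream of the 5′ end, that of TREX2 (2.11) at −499 bp and that of LRRC34/LRRIQ4 (10.5) at −497 bp. Summits beyond the edge were mostly weak, with a median ZNF143 score of 6.27 (quartiles 3.73 and 23.2) over the 235 within 500 bp, but reached 30045 at PHF12. Among windows with all 4 factors, the highest ZNF143 score was under 5 in 720 (15.1%, interval 14.2 to 16.2), so a stricter score limit for ZNF143 would move these windows into the group without it.

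The members' highest SP1 score per window ran from 2.26 to 15383, with a median of 140 (139.6, interval 132 to 147) and quartiles of 57.2 and 291. Their YY1 scores ran from 2.14 to 11163 with a median of 75.7 (72.3 to 80.0). Against their own lists these medians stood at the 85.6th percentile for SP1 and the 82.8th for YY1. Windows with all 4 factors had higher medians, 325 (315 to 336) for SP1 and 283 (270 to 296) for YY1. Windows with SP1 and YY1 only had lower ones, 36.5 (32.3 to 39.4) and 25.5 (23.05 to 28.1). The members thus lay between these groups for both factors, with intervals of the medians that did not overlap. The lists had chosen the members, so these scores are a description.

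For NRF1, the median in members was 31.0 (27.6 to 35.8) against 62.0 (56.3 to 70.3) in windows with all 4 factors, but the upper quartile was 548 and the highest score 26636. Under 10 were 27.8% of members (26.3 to 29.4), from 10 to 100 36.0%, from 100 to 1000 14.7% (13.5 to 16.0), and at 1000 or more 21.5% (20.1 to 22.99). The highest class was therefore fuller than the one below it, as it also was with all 4 factors (28.1% and 15.9%). At 1000 or more lay 4.40% of the members' SP1 scores and 4.78% of their YY1 scores, but such limits do not mark the same strength in different lists. Across members, Spearman's rho between the highest scores was 0.445 for SP1 with YY1, 0.165 for NRF1 with YY1 and 0.104 for SP1 with NRF1 (n = 3159 windows, with 1 list per factor behind all points). It was 0.238, 0.0499 and −0.00159 in the 4756 windows with all 4 factors.

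**Figure D1:**
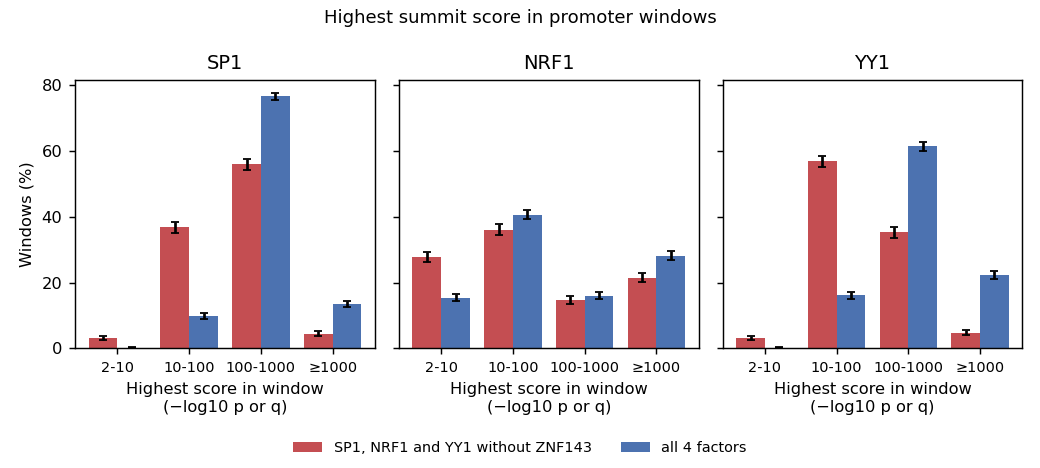
Share of promoter windows (y axis, percent) by the highest score in the window (x axis, −log10 p or q, in 4 ranges) for SP1, NRF1 and YY1, in the 3159 windows without ZNF143 (red) and the 4756 with all 4 factors (blue). Error bars are Wilson 95% intervals. Windows without ZNF143 lay more often at low SP1 and YY1 scores, and 21.5% of them had an NRF1 score of 1000 or more.

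The same scores can be given for all 7915 windows with SP1, NRF1 and YY1, divided into 4 groups of about equal size by score. This restates the difference in scores above for each part of the range and is no separate evidence of it. Of the windows with the lowest YY1 scores (2.14 to 73.1), 77.7% (interval 75.8 to 79.4) had no ZNF143 summit. The share fell through 45.0% and 21.6% to 15.4% (13.9 to 17.1) where YY1 scored 483 or more. For SP1 the shares were 69.6% (67.6 to 71.6), 41.5%, 27.8% and 20.8% (19.1 to 22.6). For NRF1 they were 52.0% (49.8 to 54.2), 36.8%, 37.2% and 33.6% (31.5 to 35.7). The share thus fell at each step for SP1 and YY1, while for NRF1 the 3 upper groups lay close together.

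**Figure D2:**
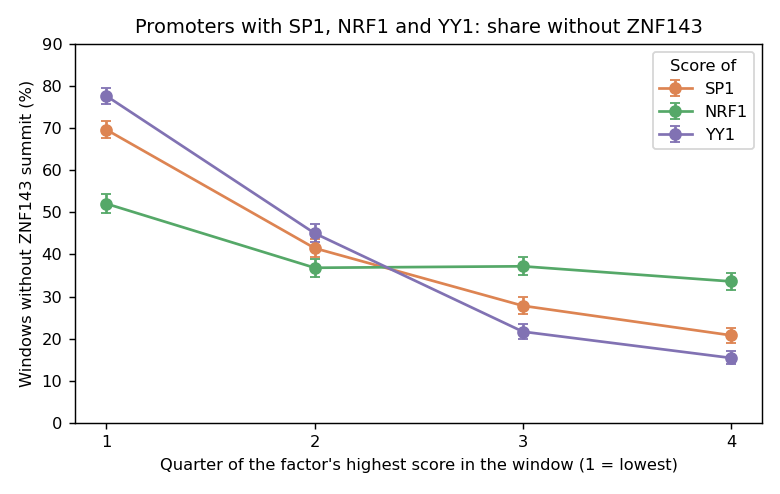
Share of windows without a ZNF143 summit (y axis, percent) among promoters with SP1, NRF1 and YY1, by 4 groups of the highest score of each factor (x axis, 1 is lowest). Error bars are Wilson 95% intervals. The share fell from 77.7% to 15.4% with the YY1 score, from 69.6% to 20.8% with the SP1 score and from 52.0% to 33.6% with the NRF1 score.

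Some members did carry very strong summits. The highest SP1 scores were at LYNX1/LYNX1-SLURP2 (15383), STK17A (9654), ARRDC4 (8609), SYPL1 (7460) and SP1 itself (5220.3). ARRDC4 encodes an arrestin domain protein and STK17A a serine/threonine kinase. At 4 of these 5 windows the NRF1 score was under 100, at 7.08, 62.7, 8.95 and 5.15, and SYPL1 was the exception with 2663. LYNX1/LYNX1-SLURP2, STK17A and SYPL1 had the SP1 motif within 50 bp of the SP1 summit, and ARRDC4 and SP1 did not. In the SP1 window (chromosome 12, 53379676 to 53380676, ENSG00000185591.10) the SP1 summit lay at −347 bp from the 5′ end, YY1 scored 89.7, and the nearest ZNF143 summit (score 5.47) was 8743 bp beyond the edge. The genes of ZNF143, NRF1, YY1, THAP11 and HCFC1 all had summits of all 4 factors in their windows, and ZNF76, a paralogue of ZNF143, had none of the 4.

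The highest NRF1 scores were at PHF12 (26636), RFX2 (25534), SAMHD1 (21028), SYNGR4/TMEM143 (20781) and FAM220A/SAGSIN1 (20691). PHF12 encodes a subunit of a SIN3 histone deacetylase complex, RFX2 a regulator of ciliary genes and SAMHD1 a deoxynucleotide triphosphatase. ZNF143 summits lay outside 2 of these windows with scores of 30045 at 149 bp beyond the edge of PHF12 and of 16603 at 341 bp beyond SYNGR4/TMEM143. SAMHD1 had a weak one (5.61) at 81 bp. RFX2 and FAM220A/SAGSIN1 had none within 1000 bp. SYNGR4/TMEM143 and FAM220A/SAGSIN1 had the NRF1 motif within 50 bp of the NRF1 summit, and PHF12, RFX2 and SAMHD1 did not.

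The highest YY1 scores were at TOMM40L (11163), EIF4G2 (6186), RBM19 (5319), MRPS14 (4554) and USP21 (4497), and each of these 5 had the YY1 motif within 50 bp of its YY1 summit. TOMM40L belongs to the outer mitochondrial membrane, EIF4G2 to translation initiation, RBM19 to ribosome biogenesis and MRPS14 to the mitochondrial ribosome, and USP21 is a deubiquitinase. Their YY1 summits lay from 14 to 306 bp downstream of the 5′ end. The nearest ZNF143 summit of any of the 5 was 4840 bp beyond the edge, at USP21.

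Ranked by the lowest of their 3 percentiles, the members with strong summits of all 3 factors were led by the divergent promoter of CBX5 and HNRNPA1 (97.8th percentile or higher in each list), CNOT1, SRSF2, DNAJB12 and DDX39A. CBX5 encodes the heterochromatin protein HP1 alpha, HNRNPA1 and SRSF2 splicing regulators, CNOT1 the scaffold of the CCR4-NOT deadenylase, DNAJB12 an endoplasmic reticulum co-chaperone and DDX39A an RNA helicase of mRNA export. At CBX5/HNRNPA1 (chromosome 12, 54279633 to 54280693) the scores were 922 for SP1, 16209 for NRF1 and 1208 for YY1. ZNF143 summits lay just outside CNOT1 (score 9606, 143 bp beyond the edge), DNAJB12 (7709 at 43 bp) and SRSF2 (19.3 at 6 bp). Over all members this was weaker: of the 790 with the highest ranks, 9.62% (interval 7.76 to 11.9) had a ZNF143 summit within 500 bp of the edge, against 6.08% (4.62 to 7.97) of the 789 with the lowest.

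The 3 factors differed in where they sat. Relative to the 5′ end, the median position of the highest SP1 summit was −41 bp (interval −44 to −36), that of the NRF1 summit −24 bp (−30 to −19) and that of the YY1 summit 93 bp (87 to 99). Downstream of the 5′ end lay 68.5% (66.9 to 70.1) of the YY1 summits, 41.6% (39.9 to 43.3) of the NRF1 summits and 35.5% (33.8 to 37.1) of the SP1 summits. In windows with all 4 factors the YY1 summit was closer to the 5′ end, at 48 bp (43 to 54), and 44.3% of YY1 summits lay within 100 bp of it against 31.8% in members. SP1 (−30 bp) and NRF1 (−23 bp) differed less. Distances were taken to the nearest 5′ end, and windows with all 4 factors more often held at least 2 (21.7% against 9.34%). The part of this in the YY1 difference was not tested. Where the YY1 motif lay within 50 bp of the summit, in 112 members, it sat closer to the 5′ end, at a median of 29 bp (22 to 47). Of the 112 copies 75 (67.0%, 57.8 to 74.99) read AANATGGCG along the gene's own strand. The NRF1 motif sat at −18 bp (n = 254, interval −33 to −12) and the SP1 motif at −46 bp (n = 525, −50 to −43), with 47.2% (41.2 to 53.4) and 51.4% (47.2 to 55.7) of copies along the gene. In windows with all 4 factors the YY1 motif at the summit sat at 27 bp (n = 434, interval 24 to 29), and 70.5% of copies read along the gene. Both values had intervals that overlapped those of the members.

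**Figure D3:**
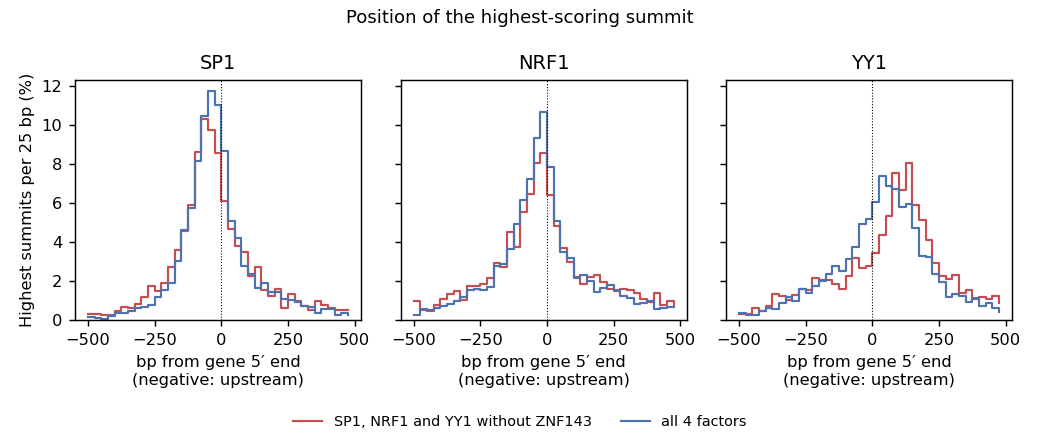
Distance of the highest-scoring summit from the nearest gene 5′ end (x axis, bp, negative upstream) as the share of windows per 25 bp (y axis, percent), in windows without ZNF143 (red) and with all 4 factors (blue). SP1 and NRF1 summits were densest just upstream of the 5′ end and YY1 summits downstream, at a median of 93 bp in windows without ZNF143 and 48 bp with all 4 factors.

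Read along the gene, the most frequent order of the 3 highest summits was NRF1, SP1, YY1 (31.6% of members, interval 30.0 to 33.2), followed by SP1, NRF1, YY1 (21.8%, 20.4 to 23.3). The least frequent was YY1, NRF1, SP1 (8.61%). Nearest summits of SP1 and NRF1 were a median of 91 bp apart (interval 87 to 95), those of SP1 and YY1 89 bp (85 to 93) and those of NRF1 and YY1 116 bp (112 to 120). All 3 pairs lay within 100 bp in 698 members (22.1%, 20.7 to 23.6), against 29.5% (28.3 to 30.9) of windows with all 4 factors. With 50 bp the share of members was 7.502% and with 250 bp it was 77.2%. A single SP1 summit was present in 78.4% of members and a single NRF1 summit in 78.4%, while only 54.4% had a single YY1 summit (64.0% of windows with all 4 factors).

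Motifs were searched as exact letters on both strands of windows that had not been merged and so had equal length: 2870 members, 3728 windows with all 4 factors, 1304 with SP1 and YY1 only and 16523 in all. Sequence was not used to choose the members. The SP1 motif GGGGCGGGG was in 51.4% of members (interval 49.5 to 53.2), 41.6% (40.1 to 43.2) of windows with all 4 factors and 29.9% of all windows. The difference to all 4 factors was 9.73 percentage points (Newcombe 95% interval 7.30 to 12.1). Members also had the higher GC content, with a median of 64.8% (64.4 to 65.2) against 62.2% (61.8 to 62.5) and 58.6% over all windows, and within 5 groups of like GC content the mean difference was 5.07 points, with −2.99 in the group of lowest GC content and 6.37 to 8.94 in the others. The intervals of the ratio of observed to expected CpG overlapped, at medians of 0.798 (0.792 to 0.803) and 0.803 (0.798 to 0.807).

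The NRF1 motif GCATGCGC was in 9.44% of members (8.43 to 10.6) and 9.76% (8.85 to 10.8) of windows with all 4 factors, a difference of −0.321 points (interval −1.74 to 1.13) whose sign turned in 2 alternatives (0.657 with the better-scoring 50% of the 3 lists, 0.0726 within groups of like GC content). It was in 5.2% of all windows and 1.23% of those with SP1 and YY1 only. The YY1 motif AANATGGCG was in 7.77% of members (6.85 to 8.81, above the 6.53% of all windows), and in 15.2% (14.1 to 16.4) of windows with all 4 factors. That difference was −7.41 points (−8.92 to −5.89). It was negative in each of the 5 groups of like GC content (−8.74 to −5.62) and of like SP1 score (−9.31 to −4.82). Groups of like YY1 score were not made.

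The site of the ETS family, activators that bind many housekeeping promoters, was written CCGGAAGT. It was in 6.13% of members (5.31 to 7.07), against 15.1% (13.96 to 16.3) of windows with all 4 factors and 5.62% of all windows. The difference of −8.94 points (−10.4 to −7.49) was negative in each group of like GC content (−10.4 to −5.44) and of like SP1 score (−9.39 to −5.21). Smaller differences were found for the cyclic AMP response element TGACGTCA (3.87% against 5.42%, all windows 2.86%, difference −1.55 points, −2.56 to −0.523), the E2F site TTCCCGCC (12.2% against 14.3%, 8.81%, −2.04, −3.67 to −0.385) and the USF E-box CACGTGAC (4.95% against 6.87%, 3.67%, −1.92, −3.05 to −0.770). Within groups of like SP1 score these 3 shrank to −0.455, −0.327 and −0.722 points. The CCAAT box of NF-Y, written CCAATCA, was in 13.8% and 13.01% (all windows 12.7%, difference 0.823, −0.828 to 2.50), and within groups of like SP1 score the difference was 5.92 points. The E2F and SP1 letters both hold CCCGCC on one strand. It follows a T in the E2F letters and a C in the SP1 letters, so the same copy cannot count for both.

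**Figure D4:**
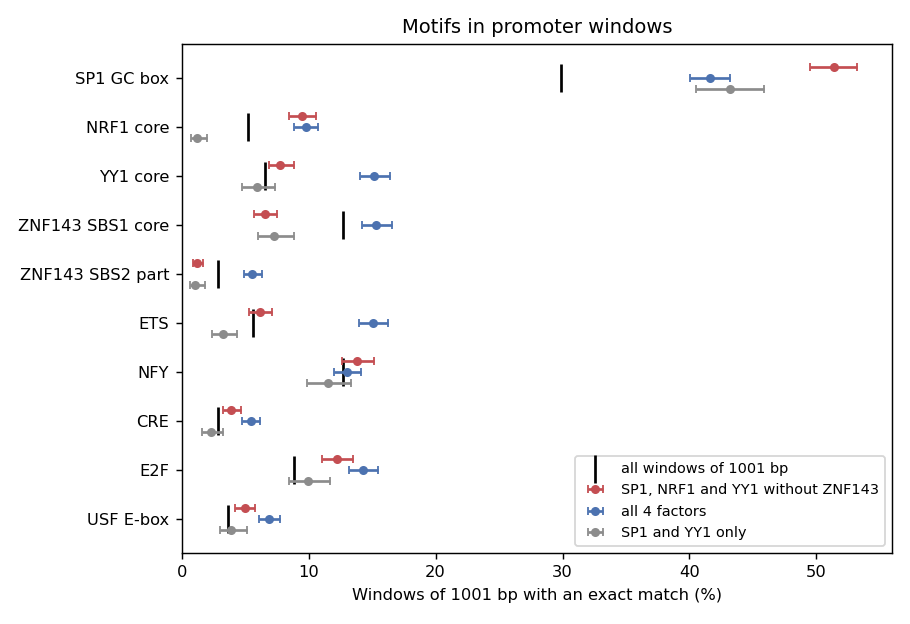
Share of full-length promoter windows with an exact match to each motif (x axis, percent) for windows without ZNF143 (red), with all 4 factors (blue) and with SP1 and YY1 only (grey), with Wilson 95% intervals. Black ticks give the share over all 16523 windows. The ETS motif was in 6.13% of windows without ZNF143 and 15.1% of windows with all 4 factors, and the SP1 motif in 51.4% and 41.6%.

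Exact copies of parts of the ZNF143 site were uncommon in the members. These letters miss most sites: with all 4 factors, 281 of 4756 windows (5.91%, 5.27 to 6.62) had the core within 50 bp of the highest ZNF143 summit. A missing copy therefore says little about a single window. The core of Staf binding site 1, written TCCCANNAT, was in 6.55% (5.70 to 7.52), against 15.3% (14.2 to 16.5) of windows with all 4 factors, 7.29% (6.00 to 8.83) of those with SP1 and YY1 only and 12.7% of all windows. ACTACANTT, the upstream part of the extended site, was in 1.22% (0.878 to 1.69), against 5.55% (4.86 to 6.33), 1.07% and 2.87%. The differences to all 4 factors were −8.79 (−10.3 to −7.31) and −4.33 points (−5.19 to −3.50). The latter was −7.91 against windows whose ZNF143 score was above the median of its list. The rule had set these groups apart by ZNF143 summits, so the differences in its motif are not independent of the choice. The members' GC content lay above that of all windows, and its part in the low share beside all windows was not tested. Counting windows of every length, 223 of 3159 members held the core without a ZNF143 summit, and 3 held both parts, LRRC20, DYNC1I1 and ENSG00000285920, against 92 of 4756 windows with all 4 factors. These 3 were picked as the whole of a small count.

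Among the best ranked of the 223 were CBX5/HNRNPA1, CASP2, ZDHHC12 and HMGN3. CASP2 encodes a caspase, ZDHHC12 a palmitoyltransferase and HMGN3 a nucleosome-binding protein. Their nearest ZNF143 summits were between 20344 and 155847 bp beyond the window, with scores from 4.97 to 9.55. The copy between CBX5 and HNRNPA1, which lies outside exons, is shown with 10 bp on each side, capitals marking the core, at chr12:54280140-54280168 (at −21 bp from the nearest 5′ end).
CBX5 and HNRNPA1: tgcgcaaccaATCCTGGGAccggaccttt

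A summit had its factor's motif within 50 bp most often in the members with the highest scores. For NRF1, 254 of 3159 members (8.04%, interval 7.14 to 9.04) had the motif at the highest summit. It was at 28.6% (25.6 to 31.9) of the 790 with the highest NRF1 scores, 2.91% of the next 791, and 0.249% and 0.387% below. For YY1 the share was 3.54% (112 members), 13.3% (11.1 to 15.8) at the highest scores, and 0 of 787 and 0 of 790 in the lower groups (upper 95% Wilson limits 0.486% and 0.484%). For SP1 it was 16.6% (15.4 to 18.0), and 21.5%, 21.01%, 15.9% and 7.99% from the highest group to the lowest. With all 4 factors the SP1 share did not follow the score in this way, with 9.81% in the highest group, then 13.4%, 11.8% and 7.57%. The groups were cut separately in each set of windows and cover unlike score ranges. The SP1 cuts were 57.2, 140 and 291 in members and 177, 325 and 608 with all 4 factors. Windows with all 4 factors had the YY1 motif at 9.13% (8.34 to 9.98) of their YY1 summits and the SP1 motif at 10.6% (9.79 to 11.5) of their SP1 summits. Compared with them, members had the SP1 motif at the summit more often and the YY1 motif less often, with intervals that did not overlap. The NRF1 shares (8.41% with all 4 factors) had overlapping intervals. Members also had the lower YY1 scores (median 75.7 against 283), and the YY1 motif lay mostly at high scores. Windows of like YY1 score were not compared, so the YY1 motif difference cannot be told apart from the difference in score. In all, 41.3% (39.5 to 43.1) of members of full length held none of the 3 factors' own motifs anywhere in the window. A further 49.2% held 1, 9.06% held 2 and 0.418% (12 windows) held all 3. Windows without any of the 3 motifs were no less frequent in the comparison groups, at 44.6% (43.05 to 46.2) with all 4 factors and 52.2% (49.5 to 54.9) with SP1 and YY1 only.

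Promoters shared by neighbouring genes were less frequent among members than among windows with all 4 factors. At least 2 protein-coding 5′ ends lay in 9.34% of member windows (interval 8.37 to 10.4), against 21.7% (20.6 to 22.9) with all 4 factors and 9.24% of all windows. Head-to-head pairs, divergent genes with facing starts, were 4.49% (3.83 to 5.28), 11.8% (10.9 to 12.7) and 4.53%. Joined windows are longer, and the part of window length in this difference was not tested. With 1 window per gene the share of windows with the 3 factors that lacked ZNF143 was 38.2%.

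Gene groups, taken by gene symbol, were divided unevenly. Over all genes 17.4% lay in member windows and 29.4% in windows with all 4 factors, and of the 9352 genes with SP1, NRF1 and YY1, 37.1% (interval 36.1 to 38.1) had no ZNF143. Of core autophagy genes 10 of 26 were members (38.5%, 22.4 to 57.5) and 13 had all 4 factors. They included PIK3C3, ATG4D, a protease that processes ATG8 proteins, ATG12, a ubiquitin-like conjugation protein, and WIPI2, a phosphoinositide reader. Their YY1 scores were 1697, 893, 2094 and 73.1 and their NRF1 scores 654, 105, 69.4 and 9642. Of genes of intraflagellar transport, the BBSome and centrosome proteins named CEP, 20 of 63 were members (31.7%, 21.6 to 44) and 29 had all 4 factors. Examples were CEP120, needed for centriole growth (SP1 1091, NRF1 6734, YY1 248), and IFT27, a small GTPase of the transport particle (1511, 9975 and 118).

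E2F factors and their dimer partners counted 5 members of 10 (50.0%, 23.7 to 76.3), with 3 in windows with all 4 factors. E2F1, an activator of the G1 to S transition, scored 442 for SP1, 896 for NRF1 and 70.6 for YY1, and E2F8, a repressor, 330.3, 239 and 80.9. Of cyclins and cyclin-dependent kinases 12 of 47 were members (25.5%, 15.3 to 39.5), among them CCNB1 and CCNB2, the B-type cyclins of mitosis, CDK4 of the G1 phase and CDK7 of the TFIIH complex. CCNB1 had an NRF1 score of 4161, CDK4 of 952, CDK7 of 62.0 and CCNB2 of 52.5. The interval of the cyclins and kinases held the 17.4% of all genes, and those of the autophagy, ciliary and E2F genes lay above it. Among genes with the 3 factors, however, the intervals of the share without ZNF143 held the 37.1% of all genes for each of these 4 groups: 43.5% (25.6 to 63.2) for autophagy, 40.8% (28.2 to 54.8) for the ciliary and centrosome genes, 62.5% (30.6 to 86.3) for E2F and 36.4% (22.2 to 53.4) for cyclins and kinases.

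Replication-dependent histone genes had 18 members of 72 (25%, 16.4 to 36.1). The pair H2AC11 and H2BC11, which shares 1 window, had an SP1 score of 4231, and H3C6 a YY1 score of 3455. Golgi and vesicle coat genes had 20 of 86 (23.3%, 15.6 to 33.2), such as AP3B1 (NRF1 14789.6, SP1 951) of the AP-3 adaptor and COPB1 of the COPI coat (NRF1 348). Vacuolar sorting and endosomal genes had 18 of 75 (24.0%, 15.8 to 34.8), such as VPS13A, a lipid transfer protein (NRF1 8586), and CHMP5 of the ESCRT-III complex (5289). DNA repair genes had 11 of 50 (22%, 12.8 to 35.2), with NRF1 scores of 2362 at FANCA, 8229 at XRCC6 and 3301 at ATM. The intervals of these 4 groups held the 17.4% of all genes. Those of the share without ZNF143 among genes with the 3 factors held 37.1%, at 37.5% (25.2 to 51.6) for histones, 30.3% (20.6 to 42.2) for Golgi and coat genes, 32.1% (21.4 to 45.2) for vacuolar and endosomal genes and 28.2% (16.5 to 43.8) for repair genes.

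Groups with few members were mostly well filled with all 4 factors. Proteasome subunits had 1 member of 36, PSMA7, and 25 with all 4 factors. Cytosolic ribosomal protein genes had 5 of 81 (6.17%, interval 2.67 to 13.7) and 57 with all 4 factors, and the 5 included RPS10, RPS4X, RPL10 and RPS24. RPS24 had the lowest NRF1 score of these, 25.3, and RPL10 the highest, 2164. Nucleoporin names had 2 of 28 (NUP155 and NUP62CL, the latter a paralogue of NUP62) against 23 with all 4 factors, and genes of replication licensing and forks 4 of 45 (PCNA, ORC5, RFC2 and RFC4) against 32. PCNA, the sliding clamp, had an NRF1 score of 5570.0, while RFC4, a clamp loader subunit, was a member on weak summits only (7.38 for SP1, 2.32 for NRF1 and 2.14 for YY1). Genes named ZNF with a number, mostly zinc finger proteins, had 52 of 509 (10.2%, 7.88 to 13.1) against 257 with all 4 factors, and the intervals of this group, of the ribosomal proteins and of the proteasome lay below 17.4%. Those of the nucleoporins (7.14%, 1.98 to 22.65) and of the replication genes (8.89%, 3.51 to 20.7) held the 17.4% of all genes.

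Genes of mitochondria, a known field of NRF1, were mostly in windows with all 4 factors. Mitochondrial ribosomal proteins had 9 members of 78 (11.5%, interval 6.19 to 20.5) and 59 with all 4 factors, complex I subunits 5 of 38 and 25, complexes II to V 8 of 51 and 30, import and protein quality genes 7 of 40 and 31, and mitochondrial DNA maintenance and expression genes 4 of 24 and 19. The member shares of these groups, from 11.5% to 17.5%, had intervals that held the 17.4% of all genes. Among genes with the 3 factors, those without ZNF143 were 13.2% (7.12 to 23.3) for the mitochondrial ribosome, 16.7% (7.34 to 33.6) for complex I, 21.1% (11.1 to 36.4) for complexes II to V and 18.4% (9.22 to 33.4) for import, with upper limits below the 37.1% of all genes. For mitochondrial DNA maintenance and expression the share was 17.4% (6.98 to 37.14), with an upper limit that reached it. The members named here are the best ranked of their groups, chosen on these scores, and do not stand for the groups. Strong NRF1 summits lay at MRPS18C (13439), NDUFA12 (8972), NDUFS8, an iron-sulfur subunit of complex I (5190.2), TOMM7 of the outer membrane translocase (8806), ATP5MG of ATP synthase (4322) and COX6C of cytochrome oxidase (4229). Low NRF1 scores were found at MRPS14 (40.9), TIMM10B (91.95), MTERF1 (19.3) and MTERF2 (13.99). TFB2M, a mitochondrial transcription factor, had an NRF1 score of 2474, and TEFM, the mitochondrial elongation factor, of 13.3 beside a YY1 score of 1543.

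Genes of RNA handling were likewise mostly in windows with all 4 factors. Splicing genes had 8 members of 59 and 45 with all 4 factors, DEAD and DEAH box helicases 8 of 52 and 30, translation initiation factors 8 of 55 and 37, aminoacyl-tRNA synthetases 6 of 35 and 22, and tRNA modification and processing genes 10 of 57 and 38. The member shares of these 5 groups, from 13.6% to 17.5%, had intervals that held the 17.4% of all genes. Among genes with the 3 factors, the share without ZNF143 was 15.1% (7.85 to 27.1) for splicing, 21.1% (11.1 to 36.4) for helicases, 17.8% (9.29 to 31.3) for initiation factors and 20.8% (11.7 to 34.3) for tRNA modification, below 37.1%. The interval of the synthetases, 21.4% (10.2 to 39.5), held 37.1%. PRPF8, the scaffold of the spliceosome's catalytic core, had scores of 250 for SP1, 204 for NRF1 and 795 for YY1. SARS1, the seryl-tRNA synthetase, had an NRF1 score of 17133 with SP1 at 143 and YY1 at 84.7. AARS1, the alanyl-tRNA synthetase, shared its window with DDX19B, a helicase of mRNA export (SP1 715, NRF1 52.5 and YY1 132).

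**Figure D5:**
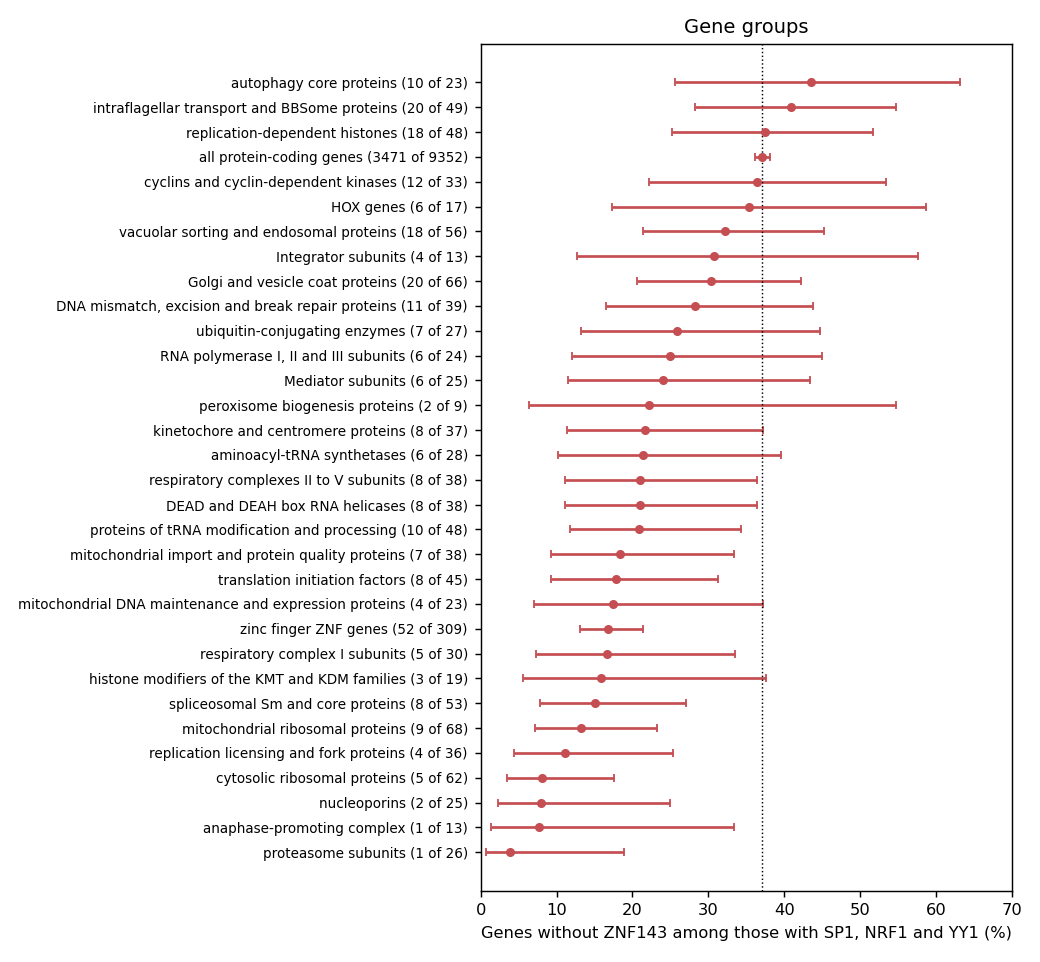
Share of genes without ZNF143 (x axis, percent) among the genes of each group whose window held SP1, NRF1 and YY1, with Wilson 95% intervals and the counts behind it, for groups of at least 15 genes, without olfactory receptors, keratins and protocadherins. The dotted line marks all protein-coding genes (37.1%). Core autophagy genes (10 of 23) lay at the upper end and proteasome subunits (1 of 26) at the lower end.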

How the data were processed

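Per the labels, ChIP-seq was done on HEK293T cells of 1 clone. The authors deposited 1 list of 1-bp summits per antibody with a −log10 p- or q-value in column 5 (from the values and layout; which of these is not stated). Per the submitters' processing notes, cutadapt, Bowtie2, SAMtools 1.16.1, MACS3, bedtools and hg38 were used, with no role given; cutoffs, filters and pooling are not given in the sources used here. The lowest score was about 2 in each list. All 288727 summits fell within the hg38 contigs. The merged signal tracks that the labels name, and the mock samples, were not analysed here.

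With Python 3.11.15, numpy 2.4.6 and scipy 1.17.1, windows were built from GENCODE 44, and each summit in a window was kept with its score. Offsets are from the nearest 5′ end of the window. Shares carry Wilson, differences Newcombe and medians order-statistic 95% intervals. No test was made, because no list separates the samples. Scripts were tested on simulated data.

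Named genes were, by rule, the 5 highest scores per factor, the 5 highest ranks by the lowest of the 3 percentiles, the 5 best ranked with the ZNF143 core, 3 windows on each side of the edge, the factors' own genes, and up to 4 members per gene list. Those of the gene lists were the best ranked by the lowest percentile. A gene that the rule names is not reported here. The text describes some of the 37 gene lists, picked after their counts were seen, and the plot of gene groups shows most of the others. Members, lists and motifs were chosen with earlier results of these data known. Alternatives changed the window, the lists' length, the distances and the merging, and, added after seeing the data, compared motifs within groups of GC content or SP1 score and against stronger ZNF143 windows.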

Additional observations from a re-analysis of the deposited data

How the results depend on the processing

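No paired analysis was possible because the lists give no value per sample, and leaving out a replicate was not possible for the same reason. The share of windows with SP1, NRF1 and YY1 that lacked ZNF143 was 42.5% with 250 bp and 38.7% with 1000 bp either side, 60.6% with the better-scoring 50% of each list, 35.5% when only the SP1, NRF1 and YY1 lists were so shortened, 19.3% with equal list lengths and 38.2% with 1 window per gene. Equal list lengths left 724 members, while the other settings stayed within 1.5 times the 3159. The YY1 score difference to windows with all 4 factors was −238 for summed scores and −187 in windows that were not merged. All 3 pairs lay within 50 bp in 7.502% and within 250 bp in 77.2% of members. Averaged over groups, no motif difference whose interval left out 0 changed sign, while that of the NRF1 motif, whose interval held 0, did. In single groups of like GC content or SP1 score some did, among them SP1 (−2.99 at the lowest GC content), CRE (up to 1.89) and E2F (up to 2.39). In the central part of the window the ZNF143 core differed by −5.95 points. Within groups of like GC content the SP1 motif differed by 5.07 points. Within groups of like SP1 score the differences were 13.35 (SP1), −7.43 (ETS), 5.92 (NF-Y), −0.455 (CRE), −0.327 (E2F) and −0.722 (USF). Against windows whose ZNF143 score was above the list's median they were −9.70 (YY1), −12.6 and −7.91 (ZNF143 core and upstream part) and −10.9 (ETS). Causes were not tested. Depth is unknown, and a missing ZNF143 summit does not show absence of ZNF143.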

Other observations

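Members were unevenly spread over chromosomes. Chromosome 19, which carries many zinc finger genes, had the lowest share, with 145 of 1303 windows (11.1%, interval 9.53 to 12.95), while 32.1% of its windows held all 4 factors. Chromosome 4 had the highest, with 170 of 700 (24.3%, 21.3 to 27.6) and 19.6% with all 4 factors.

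Of 415 olfactory receptor genes 0 were members and 414 (99.8%) had a summit of none of the 4 factors, against 36.9% of all genes. Keratin genes had 2 members of 55 (3.64%), KRT18 and KRT222, and clustered protocadherin genes 2 of 53 (3.77%), PCDHGC3 and PCDHGB7. HOX genes had 6 members of 39 (15.4%, interval 7.25 to 29.7, against 17.4% of all genes) and 11 with all 4 factors (28.2%, against 29.4%). Of the 6, HOXA13 ranked highest, with scores of 210 for SP1, 28.4 for NRF1 and 119 for YY1.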
